A study of Mus musculus with 6 samples.

Results

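The data on 9 genes that promote or oppose the deposition of calcium phosphate are described here, in mesangial cells exposed to TGF-β1. They were the inhibitor of calcification Mgp, the RANK ligand system genes Tnfrsf11b and Tnfsf11, the phosphate and pyrophosphate genes Alpl, Enpp1 and Ank, and the osteogenic transcription factors Runx1, Runx2 and Sp7. The genes were found in the expression table by their symbols, and the list was drawn up with earlier results of these data known. Each had exactly 1 row among its 19730 rows.

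RNA-Seq had been performed on total RNA of primary mesangial cells of the mouse. Mesangial cells are the pericyte-like cells that hold the capillary loops of the glomerulus together. All cultures, Control and treated, were of passage 3 to 6 and were kept in medium with 25.5 mM glucose and 20% foetal bovine serum, so the Control cells also grew in high glucose. The 3 TGF-β1 libraries came from cells given TGF-β1, a profibrotic cytokine, at 10 ng/ml for 72 h, and the 3 Control libraries from cells labelled as controls. Strain, sex and age of the mice, and whether a vehicle was given, are not given in the sources used here. The labels do not say that the replicates were separate cultures, so the p-values measure the spread between these samples, which may be technical.

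Mineral forms where phosphate is plentiful and its inhibitors are scarce. Inorganic pyrophosphate blocks the growth of hydroxyapatite crystals; ENPP1 makes it from extracellular nucleotides, ANK passes it out of the cell, and the phosphatase ALPL breaks it down to phosphate. Matrix Gla protein, the product of Mgp, is a small secreted protein that needs vitamin K-dependent carboxylation to inhibit calcification, and mice without it calcify their arteries. Osteoprotegerin, the product of Tnfrsf11b, is a soluble decoy receptor for RANKL, the product of Tnfsf11, which drives osteoclast formation through the receptor RANK. RUNX2 and SP7 (osterix) are the transcription factors that commit cells to the osteoblast fate, and RUNX1, from the same family, is best known for its role in blood formation.

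Depth as recovered from the smallest steps of the values was 10.1 to 11 M fragments per library. Across genes, libraries of the same group correlated with Pearson's r of 0.876 to 0.940 on the log2(FPKM + 1) scale, and libraries of different groups with 0.818 to 0.853. FPKM is the number of fragments per kilobase of transcript and per M (mega) mapped fragments. All 4 genes listed as markers of the TGF-β response were upregulated (limma, adjusted p under 0.05), among them Ctgf by 4.63 on the log2 scale. Of 8 mesangial markers 4 were tested, with 2 upregulated (1 to 3 over the alternative settings), 1 downregulated (0 to 2) and 1 not called. Under the filter 1 more, the pericyte marker Cspg4, was upregulated in the fit without it, from 0.0735 ± 0.0367 to 1.21 ± 0.257 FPKM (limma adjusted p 9.51e-04). Vim and Pdgfrb were at 1922 to 3598 FPKM and 28.4 to 41.1 FPKM, whereas Itga8, Thy1 and Des were at 0 to 0.55 FPKM in every library. The replicate 2 libraries of both groups deviated together from their group means (r = 0.232 across genes, against -0.194 to 0.117 for the other pairs of a Control and a TGF-β1 library), so the results below are also given for replicates 1 and 3 alone.

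In Control cells the 9 genes spanned the range from among the most abundant transcripts to none. Mgp had the highest level and lay above 98.2% to 98.3% of all rows, and Ank followed above 93.0% to 93.8%. Enpp1, Runx2, Runx1 and Alpl came next in that order, each with all 3 libraries above all 3 libraries of the next gene. Sp7, Tnfrsf11b and Tnfsf11 shared the bottom of the order at or near 0 and could not be ranked among themselves. With TGF-β1 the order was Ank, Runx1, Runx2, then Mgp and Enpp1 with overlapping ranges, then Tnfrsf11b, Alpl, and Tnfsf11 and Sp7 at or near 0. Mgp thus went from first to a place shared with Enpp1, and Runx1 from below Runx2 to above it. An order of genes by FPKM depends on the transcript lengths used, and that of Runx2 is not settled.

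**Figure D1:**
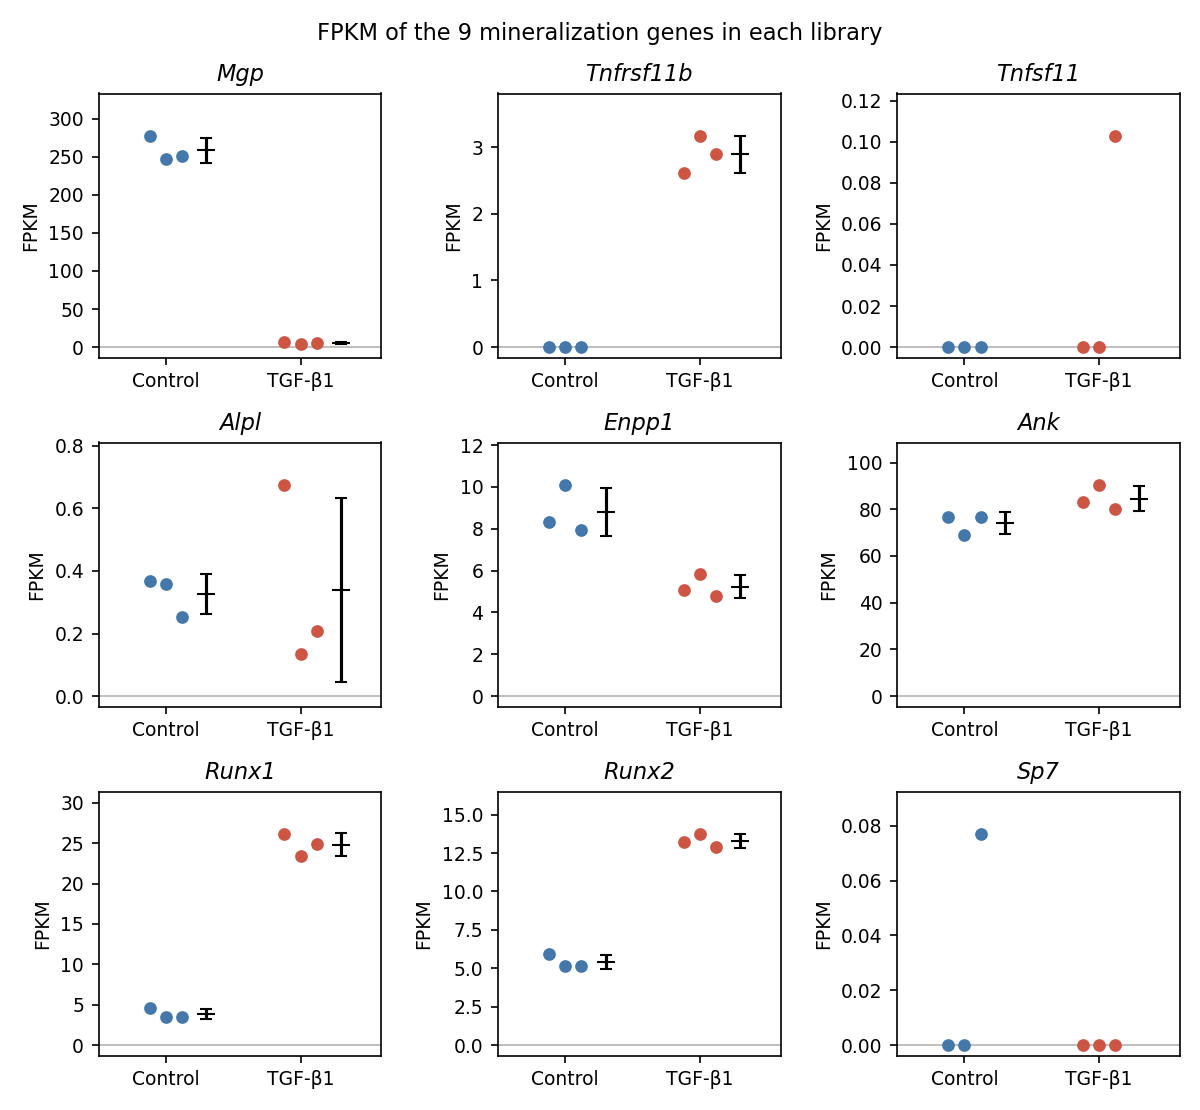
FPKM (vertical axes, linear, each gene on its own scale) of the 9 genes in the 3 Control libraries (blue) and the 3 TGF-β1 libraries (red), with 1 point per library and the mean ± SD beside a group where no library is listed at 0. Mgp drops from 247 to 278 FPKM to 4.49 to 6.39 FPKM, Tnfrsf11b appears only in the TGF-β1 libraries, Runx1 and Runx2 rise without overlap, and Alpl, Tnfsf11 and Sp7 stay under 0.68 FPKM.

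The comparison of TGF-β1 with Control was fitted to all rows with a mean of at least 1 FPKM, and an adjusted p under 0.05 was called changed. Of the 9 genes, 6 passed this filter. Of these, 5 were called, 3 upregulated (Tnfrsf11b, Runx1 and Runx2) and 2 downregulated (Mgp and Enpp1), while Ank was not called. Over all 11898 tested rows 48.1% were called, 24.5% as upregulated and 23.6% as downregulated. In all 6 genes the Control and TGF-β1 libraries did not overlap, which was also true of 59.4% of the tested rows. Being called was therefore common among all genes. The median absolute change over all tested rows was 0.40 on the log2(FPKM + 1) scale, which 5 of the 6 genes exceeded, all but Ank. Tnfrsf11b passed the filter only through its TGF-β1 libraries, so it had to differ. The other 3 genes, Tnfsf11, Alpl and Sp7, had a mean under 1 FPKM. They were tested in a fit without the filter, in which 30.5% of all rows were called and none of the 3 was.

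**Figure D2:**
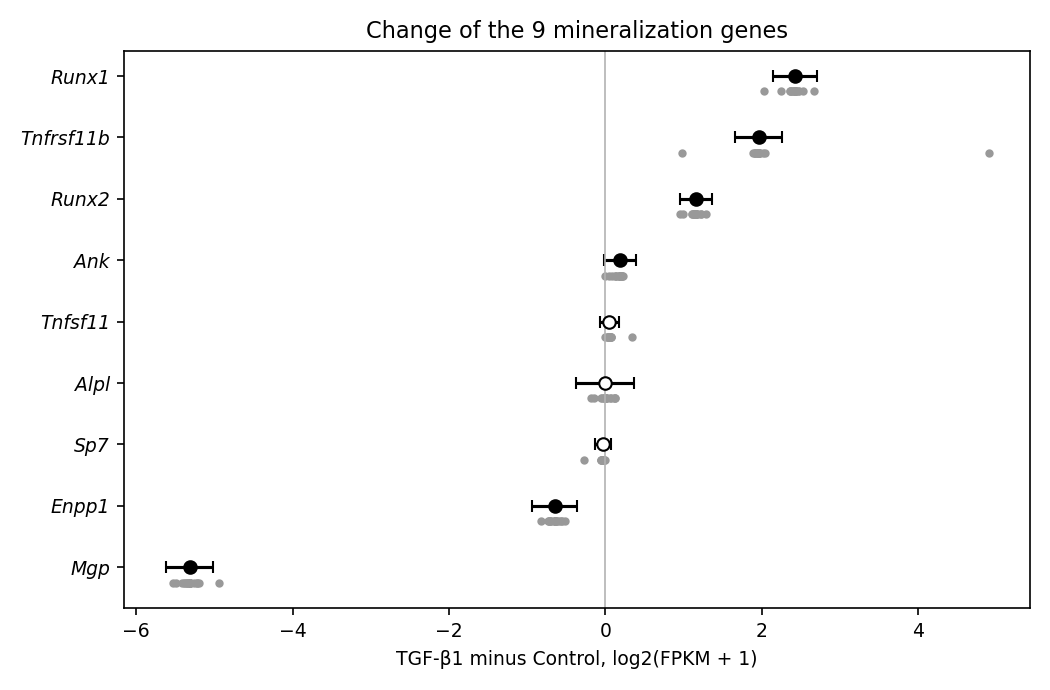
Change from Control to TGF-β1 (horizontal axis, log2(FPKM + 1)) of the 9 genes, with large points for the fitted change (open for genes under the filter), bars for its 95% confidence interval from limma, and small grey points for the change under each alternative setting. Mgp stands at -5.32 and Runx1 at 2.42, whereas the intervals of Ank, Alpl, Tnfsf11 and Sp7 include 0.

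Mgp lies on chromosome 6 (136820957 to 136824326, minus strand, mm9) and has a single annotated transcript of 598 nt. Its level was 278, 247 and 251 FPKM in Control replicates 1 to 3 and 6.39, 4.49 and 5.77 FPKM in TGF-β1 replicates 1 to 3. Every TGF-β1 library was far below every Control library. The means were 258 ± 16.7 and 5.55 ± 0.968 FPKM (SD, n = 3), which is 46.6-fold lower with TGF-β1. The fitted change was -5.32 on the log2(FPKM + 1) scale (SE 0.126, 95% confidence interval -5.62 to -5.01, limma adjusted p 4.41e-06). Only 33 of the tested rows, Mgp included, had an absolute change at least as large. Because the transcript is short, the values rest on about 1080 to 1220 fragments per Control library but only 18.1 to 28 fragments per TGF-β1 library, so the level with TGF-β1 was less precisely known. With TGF-β1 the gene still lay above 56.3% to 60.5% of all rows.

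In bulk RNA, fewer cells of one type and less RNA per cell cannot be told apart. Some markers of podocytes, tubule epithelium and macrophages moved in the same direction as Mgp, and others did not. Of 6 podocyte markers 4 were tested and all 4 were downregulated (2 to 4 over the alternative settings), beside 23.6% of all tested rows. The 6 podocyte markers summed to 27.8 to 32.2 FPKM in Control and 15.0 to 15.6 FPKM with TGF-β1, while the defining marker Nphs1 was at 0.0482 to 0.398 FPKM in every library. Of 10 tubule epithelial markers 7 had a row, and 1 (Aqp1) was tested and downregulated, with a summed level of 11.1 to 14.9 FPKM against 1.93 to 2.35 FPKM and Aqp2 and Slc12a3 at 0 to 0.0749 FPKM. Among tubule markers under the filter, 2 were upregulated (Cubn and Slc12a1) and 1 was downregulated (Lrp2) in the fit without it. Of 7 macrophage markers 5 had a row and 2 were tested, with Csf1r downregulated and Cd68 not called. Aqp1 and Csf1r passed the filter only through their Control libraries, so their calls were fixed in advance. The macrophage markers summed to 8.19 to 9.58 FPKM against 2.26 to 3.24 FPKM, and the pan-leukocyte marker Ptprc was at 0 to 0.0448 FPKM. Endothelial markers summed to 0.361 to 0.468 FPKM in Control and 0.299 to 0.822 FPKM with TGF-β1, and none of the 5 of 6 with a row passed the filter. The part of these cell types in the change of Mgp was not tested.

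Among 10845 protein-coding rows, the profiles most like that of Mgp over the 6 libraries, by Euclidean distance between centred log2(FPKM + 1) values, were those of Wnt16 (0.563), C3 (0.579) and Agt (0.846). Wnt16 encodes a secreted Wnt ligand and went from 72.4 to 94.5 FPKM in Control to 0.887 to 1.39 FPKM with TGF-β1. C3, the central complement component, went from 31.4 to 42.3 FPKM to 0.0370 to 0.131 FPKM. Agt, which encodes angiotensinogen, went from 69.1 to 79.4 FPKM to 0.117 to 0.328 FPKM. These genes fell to far lower levels than Mgp did. Their likeness to Mgp depends in part on the constant of 1 added before the logarithm. With 0.1 in its place the log2 change was -7.91 for Agt and -5.53 for Mgp.

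Other proteins with Gla residues, and the enzymes of the vitamin K cycle that make such residues, were compared with Mgp. Of 10 listed genes, 8 had a row and 4 were tested. Of the 4, 3 were upregulated (2 to 3 over the alternative settings) and 1 was downregulated, beside 24.5% and 23.6% of all tested rows. The median change was 0.49 on the log2 scale against -0.02 over all tested rows. Ggcx, the carboxylase itself, rose from 6.24 ± 0.559 to 10.4 ± 0.341 FPKM, by limma a log2 change of 0.65 (adjusted p 0.00174). Vkorc1l1, a vitamin K epoxide reductase, rose from 8.77 ± 1.004 to 18.6 ± 1.34 FPKM, by limma a log2 change of 1.004 (adjusted p 6.07e-04). Pros1, which encodes the anticoagulant protein S, fell from 18.8 ± 1.104 to 9.48 ± 1.76 FPKM, by limma a log2 change of -0.93 (adjusted p 0.00204). Ggcx and Vkorc1l1 thus rose while Mgp fell, and a link between these changes was not tested. Vkorc1, a paralogue of Vkorc1l1, had no row and could not be examined. Bglap and Bglap2, which encode osteocalcin, and Gas6 were under 1 FPKM in every library.

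Tnfrsf11b lies on chromosome 15 (54082174 to 54110039, minus strand) and, like Mgp, has a single annotated transcript, of 2818 nt. It was listed at 0 in all 3 Control libraries and at 2.61, 3.17 and 2.89 FPKM in TGF-β1 replicates 1 to 3. The TGF-β1 values were close to each other and rest on about 75.2 to 83.8 fragments per library, at a depth where 1 fragment of this gene is worth 0.0347 to 0.0378 FPKM. No fold is given against a group listed at 0, since a 0 in an FPKM table can also be a failed estimate. In the fit over every row, which does not depend on the filter, the change was 1.96 on the log2(FPKM + 1) scale (95% confidence interval 1.73 to 2.18, limma adjusted p 7.65e-05). Its size is set by the constant added before the logarithm and was 0.97 with 3 and 4.90 with 0.1 in its place. Osteoprotegerin RNA was thus detected only with TGF-β1, at a level above 50.3% to 52.3% of all rows.

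Tnfsf11, which encodes RANKL (chromosome 14, 78677252 to 78707850, minus strand), was listed at 0 in all Control libraries and in TGF-β1 replicates 1 and 2, and at 0.103 FPKM in TGF-β1 replicate 3. The single value corresponds to about 2.26 fragments. In the fit without the filter the difference was 0.05 on the log2(FPKM + 1) scale (95% confidence interval -0.07 to 0.17, limma adjusted p 0.518). RANKL RNA was not detectable at this depth in 5 of the 6 libraries, so a ratio of osteoprotegerin to RANKL could not be formed in either group.

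The other genes of the RANK pathway all had a row, and 4 of 6 were tested. Of these, 1 was upregulated, 2 were downregulated and Traf6, an adaptor of the receptor, was not called, with a median change of -0.58 on the log2 scale. Lgr4, a further receptor for RANKL, fell from 16.2 ± 0.656 to 5.30 ± 0.348 FPKM, by limma a log2 change of -1.45 (adjusted p 6.06e-05). Csf1, the macrophage growth factor needed for osteoclast formation, fell from 46.0 ± 3.04 to 21.9 ± 2.45 FPKM, by limma a log2 change of -1.04 (adjusted p 4.75e-04). Nfatc1, a transcription factor that RANK signalling induces in osteoclasts, rose from 3.61 ± 0.271 to 8.97 ± 1.14 FPKM, by limma a log2 change of 1.11 (adjusted p 4.91e-04). The receptor RANK itself (Tnfrsf11a) was at 0 to 0.0752 FPKM and Tnfsf10, whose product TRAIL is another ligand of osteoprotegerin, at 0.0189 to 0.0964 FPKM. Osteoclast markers, of which 5 of 7 had a row, were all under 1 FPKM and summed to 1.01 to 1.31 FPKM in Control and 1.102 to 1.54 FPKM with TGF-β1. In the fit without the filter 1 of the 5, Ctsk, was upregulated. The list genes named from the fit without the filter (Cspg4, Cubn, Slc12a1, Lrp2, Ctsk and Enpp3) were chosen after their values were seen.

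The profiles nearest to Tnfrsf11b were those of 2010011I20Rik (distance 0.127), Col1a1 (0.144) and Stk38l (0.151). All were called upregulated, which followed from their choice by likeness to Tnfrsf11b. Col1a1, the main fibrillar collagen gene, went from 224 to 236 FPKM in Control to 931 to 996 FPKM with TGF-β1, and Stk38l, a kinase gene, from 4.39 to 4.91 FPKM to 19.2 to 21.7 FPKM. Unlike Tnfrsf11b, these genes were already present in Control cells, and the likeness is one of the log2(FPKM + 1) change and of the spread between libraries. It depends on the constant of 1 added before the logarithm. With 0.1 in its place the log2 change was 4.90 for Tnfrsf11b and 2.27 for 2010011I20Rik, and with 3 it was 0.97 and 1.63. Over the alternative settings Col1a1 stayed at 1.84 to 2.05.

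Enpp1, the source of extracellular pyrophosphate, lies on chromosome 10 (24357720 to 24431965, minus strand). Its level was 8.34, 10.1 and 7.94 FPKM in Control replicates 1 to 3 and 5.08, 5.85 and 4.78 FPKM in TGF-β1 replicates 1 to 3. The lowest Control library was above the highest TGF-β1 library, and replicate 2 was the highest in each group. The means of 8.79 ± 1.15 and 5.23 ± 0.549 FPKM (SD, n = 3) differed 1.68-fold, with a fitted change of -0.65 (SE 0.120, 95% confidence interval -0.94 to -0.36, limma adjusted p 0.00565).

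Ank, the pyrophosphate transporter (chromosome 15, 27396432 to 27524664, plus strand), was at 76.8, 68.8 and 76.8 FPKM in Control replicates 1 to 3 and at 83.0, 90.5 and 80.1 FPKM in TGF-β1 replicates 1 to 3. All TGF-β1 libraries were above all Control libraries, by a margin smaller than the spread within either group. The means were 74.2 ± 4.65 and 84.5 ± 5.37 FPKM, and the difference of 0.19 on the log2 scale (95% confidence interval -0.02 to 0.39, limma adjusted p 0.122) did not pass the test. When libraries were scaled to the sum of their protein-coding rows the difference was -0.01 (95% confidence interval -0.22 to 0.21), so its direction also depended on the scaling.

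Alpl, tissue-nonspecific alkaline phosphatase (chromosome 4, 137297648 to 137352299, minus strand), was at 0.368, 0.358 and 0.252 FPKM in Control and at 0.675, 0.134 and 0.209 FPKM with TGF-β1. TGF-β1 replicate 1 held the highest value of all, whereas TGF-β1 replicates 2 and 3 were below every Control library. The overlap of the groups thus came from TGF-β1 replicate 1. Without that library the difference was -0.18 (95% confidence interval -0.35 to -0.0067, limma adjusted p 0.131), which was not called. The values rest on about 3.15 to 17.3 fragments per library. The difference was -0.01 on the log2(FPKM + 1) scale (95% confidence interval -0.38 to 0.37, limma adjusted p 0.990 in the fit without the filter), and at this depth no change of Alpl was detectable in either direction.

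Of these 3 genes Enpp1 alone was called. Since both values come from the same library, the ratio of Ank to Enpp1 does not depend on the scaling between libraries. It was 9.22, 6.81 and 9.68 in Control replicates 1 to 3 and 16.3, 15.5 and 16.8 in TGF-β1 replicates 1 to 3. The ratio was higher in every TGF-β1 library, by 0.93 on the log2 scale. By an exact permutation test (two-sided), p was 0.1 for each of the 3 ratios compared here, before and after Benjamini-Hochberg adjustment over the 3, and no smaller p can be reached with 3 libraries a group.

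**Figure D3:**
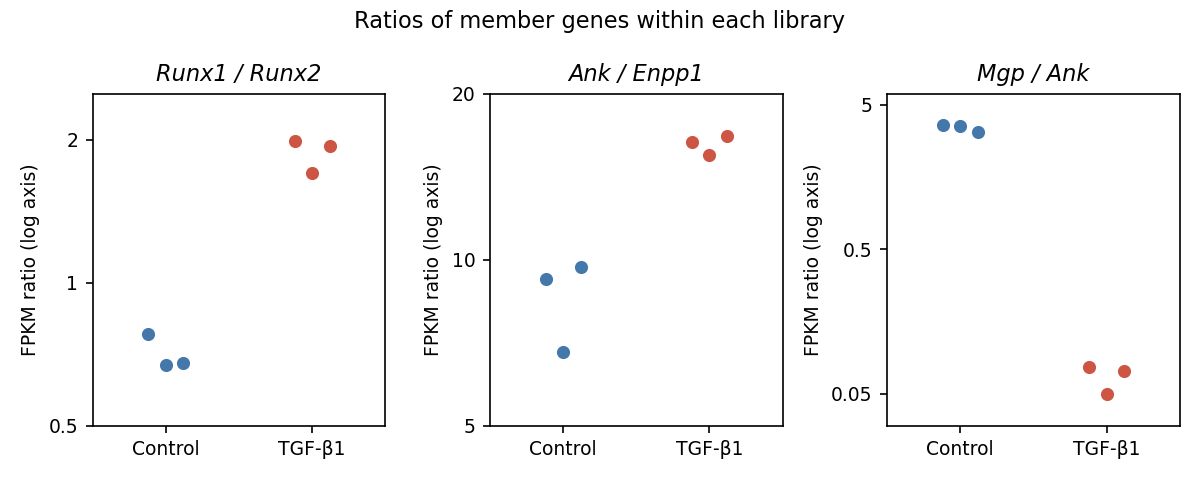
Ratio of FPKM values within each library (vertical axes, logarithmic) for Runx1 to Runx2, Ank to Enpp1 and Mgp to Ank, with 1 point per library, Control in blue and TGF-β1 in red. The ratio of Mgp to Ank goes from 3.27 to 3.61 in Control to 0.0496 to 0.0770 with TGF-β1, and the other ratios are higher in every TGF-β1 library.

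Of 9 further genes of phosphate and pyrophosphate handling, 8 had a row and 5 were tested, with 3 upregulated, 1 downregulated and 1 not called (median change 0.38). Under the filter Enpp3, a paralogue of Enpp1, was upregulated in the fit without it, from 0.105 ± 0.00151 to 0.580 ± 0.169 FPKM (limma adjusted p 0.00716). Slc20a1, which encodes the phosphate importer PiT-1, was at 14.2, 13.1 and 11.99 FPKM in Control and at 69.3, 86.3 and 71.8 FPKM with TGF-β1. All TGF-β1 libraries were far above the Control libraries (log2 change 2.44, SE 0.113, limma adjusted p 2.91e-05). Its relative Slc20a2, which encodes PiT-2, went the other way, from 25.97 ± 1.39 to 17.3 ± 0.934 FPKM, by limma a log2 change of -0.56 (adjusted p 0.00202). The order of the PiT genes was thereby turned, with Slc20a2 above Slc20a1 in every Control library and below it in every TGF-β1 library. Ppa1, an inorganic pyrophosphatase of the cytosol, rose from 27.8 ± 2.89 to 79.3 ± 1.13 FPKM, by limma a log2 change of 1.48 (adjusted p 7.73e-05).

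Secreted proteins that bind mineral or are linked to calcification were examined next. Of 11 listed genes 5 had a row, the other 6 were not analysed here, and only the glycoprotein genes Spp1 and Sparc passed the filter. Spp1, osteopontin, an inhibitor of crystal growth when phosphorylated, was at 5740, 5503 and 5072 FPKM in Control and at 1603, 1828 and 1714 FPKM with TGF-β1 (log2 change -1.66, limma adjusted p 1.27e-04). Sparc, osteonectin, a collagen- and calcium-binding protein, went from 2432, 2344 and 2020 FPKM to 5539, 5870 and 5055 FPKM, by limma a log2 change of 1.28 (adjusted p 5.26e-04). Neither gene's groups overlapped. Both levels exceeded that of every gene of the 9, and the fall of Spp1 on the log2 scale was smaller than that of Mgp. Osteoblast and osteocyte markers other than these, of which 5 of 9 had a row, summed to 4.64 to 5.14 FPKM in Control and 1.07 to 2.52 FPKM with TGF-β1. Only Omd of that list was tested, and it was downregulated (log2 change -1.65). It passed the filter only through its Control libraries, so this call was fixed in advance.

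**Figure D4:**
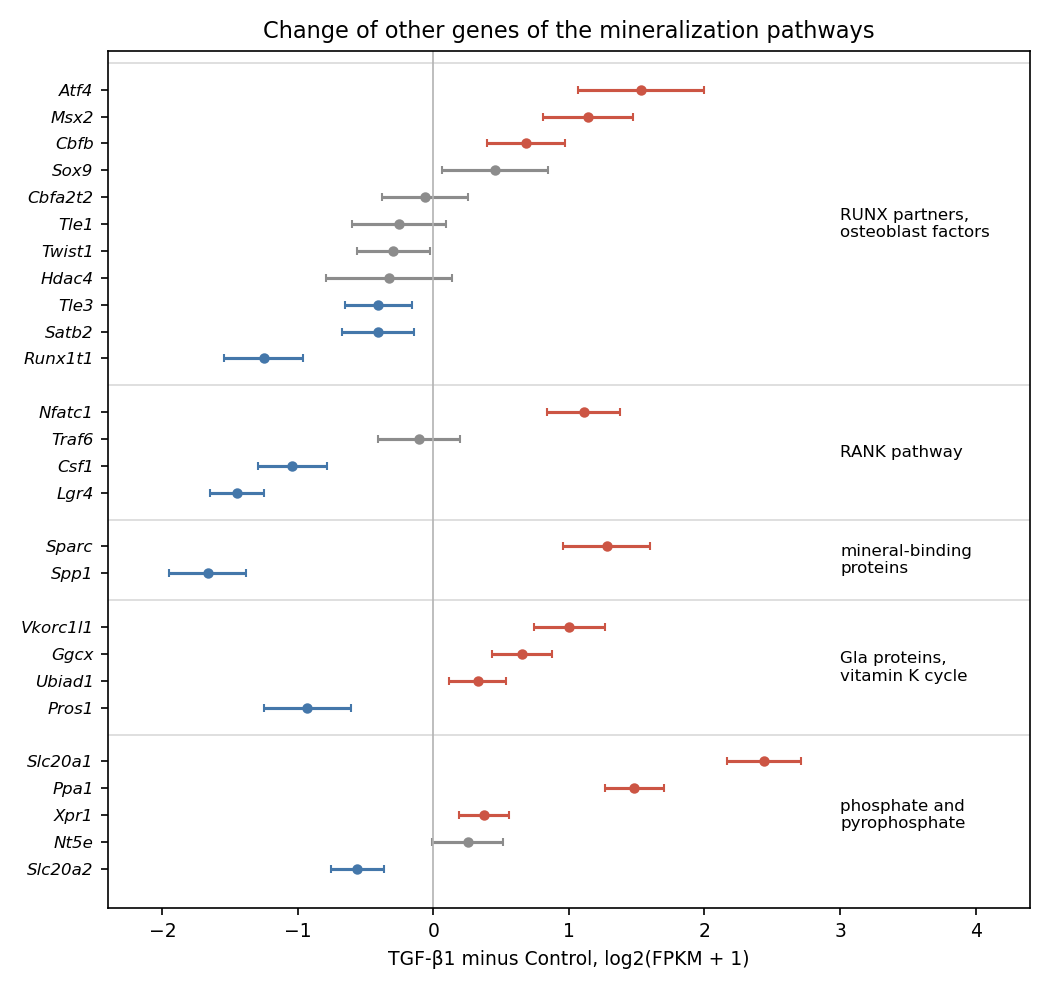
Change from Control to TGF-β1 (log2(FPKM + 1)) of the tested genes of the 5 pathway lists, with 1 point per gene, bars for the 95% confidence interval, and colour for genes called by limma at an adjusted p under 0.05 (red up, blue down, grey not called). Each list holds genes on both sides of 0, from Slc20a1 at 2.44 to Spp1 at -1.66.

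Runx1 lies on chromosome 16 (92601712 to 92826311, minus strand). Its level was 4.61, 3.43 and 3.49 FPKM in Control replicates 1 to 3 and 26.2, 23.4 and 24.9 FPKM in TGF-β1 replicates 1 to 3. The means were 3.85 ± 0.665 and 24.8 ± 1.41 FPKM (SD, n = 3), a 6.45-fold increase (log2 change 2.42, SE 0.117, 95% confidence interval 2.14 to 2.70, limma adjusted p 3.45e-05). The groups stood far apart, and the spread within each was small beside the difference. It overlaps the non-coding Gm16801 on the opposite strand, which was listed at 0 in Control and at 0.153 to 0.166 FPKM with TGF-β1. Whether reads were assigned by strand is not stated, and the part of Gm16801 in the Runx1 value was not tested.

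Runx2 lies on chromosome 17 (44632936 to 44951746, minus strand). It was at 5.93, 5.13 and 5.16 FPKM in Control replicates 1 to 3 and at 13.2, 13.8 and 12.9 FPKM in TGF-β1 replicates 1 to 3, again without overlap. The means of 5.41 ± 0.453 and 13.3 ± 0.438 FPKM differed 2.46-fold (log2 change 1.16, SE 0.0864, 95% confidence interval 0.95 to 1.37, limma adjusted p 1.60e-04). Of 14 annotated transcripts, the row names 1 of 2818 nt that is annotated as a target of nonsense-mediated decay, and it is not stated whether the value is that of this transcript or of the gene. The region also holds Supt3h, at 14.9 to 19.6 FPKM in Control and 15.9 to 18.8 FPKM with TGF-β1, and Gm10497, at 1.41 to 2.11 FPKM and 2.49 to 2.85 FPKM. The groups of Supt3h overlapped, whereas those of Gm10497 did not and were higher with TGF-β1. The part of these overlapping genes in the Runx2 value was not tested.

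Sp7, which acts downstream of RUNX2 in osteoblasts (chromosome 15, 102187040 to 102197285, minus strand), was listed at 0 in 5 libraries and at 0.0771 FPKM, about 2.25 fragments, in Control replicate 3. The difference was -0.04 on the log2(FPKM + 1) scale (95% confidence interval -0.14 to 0.07, limma adjusted p 0.568 without the filter). The increase of Runx2 was thus measured in cells in which Sp7 was at the limit of detection in both groups.

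Runx1 rose more than Runx2. The ratio of Runx1 to Runx2 was 0.778, 0.669 and 0.677 in Control replicates 1 to 3 and 1.98, 1.70 and 1.93 in TGF-β1 replicates 1 to 3. It was below 1 in every Control library and above 1 in every TGF-β1 library, with a difference of 1.40 on the log2 scale (exact permutation test, two-sided, p = 0.1). Where the ratio lies against 1 depends on the transcript length behind each value, which is not settled for Runx2.

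RUNX proteins bind the hexamer TGTGGT, or ACCACA on the other strand, and the promoters of the genes were searched for it on both strands. RefSeq promoter windows of build GRCm38.p6, from 250 bases before to 50 bases after a start site, were matched for 6 of the 9 genes (Tnfsf11, Alpl, Enpp1, Ank, Runx1 and Runx2). Of all 32851 windows, 16.8% held the hexamer at least once, 1.81% at least 2 times and 0.183% at least 3 times. The Runx2 window held 3 matches, at positions -80, 24 and 32 from the start site, the first Runx1 window 2, at 29 and 37, and the Enpp1 window 1, at -144, while no match was found in the windows of Tnfsf11, Alpl and Ank or in the second Runx1 window. The 30 bases around these matches are shown 5′ to 3′ on the strand of the gene because Runx1 and Runx2, both upregulated, have one stretch in common, with the hexamer in capitals.
Runx1, chr16:92826026-92826055: tcataaacaACCACAgaACCACAagttggg
Runx2, chr17:44814584-44814613: tcacaaacaACCACAgaACCACAagtgcgg
Runx2, upstream match, chr17:44814690-44814719: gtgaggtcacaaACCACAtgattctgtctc
Enpp1, chr10:24712286-24712315: cactctttgcagACCACAcagcgattccag

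The Runx1 and Runx2 stretches share the 22 bases aaacaACCACAgaACCACAagt, with both hexamers in the same spacing, and among all windows these 22 bases were found in 2, those of Runx1 and Runx2. In the mm9 annotation the Runx1 stretch lies in the first exon, 11 bases from the 5′ end of the transcript that the row names. The shared Runx2 stretch lies in an exon of 5 other Runx2 transcripts, and in 4 of them it is annotated as coding sequence. It starts at -78437 bases, upstream, from the 5′ end of the transcript that the row names. If the Runx2 value is that of the transcript that the row names, it is not tied to this start site. If it is that of the gene, transcripts from this start site may be part of it. The upstream Runx2 match lies in an untranslated part of an exon in 2 transcripts. The match is a description of sequence, and binding of a RUNX protein was not measured in these libraries. Among the genes with a window, Runx1, with 2 matches, and Runx2, with 3, were upregulated and Enpp1, with 1, was downregulated. Ank, Alpl and Tnfsf11, without a match, were not called, but Alpl and Tnfsf11 were under the filter, where depth limits what can be said. Mgp, Tnfrsf11b and Sp7 had no window, and a relation between matches and changes was not tested.

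Partners of RUNX proteins and other transcription factors of the osteoblast lineage were examined last. Of 17 listed genes 15 had a row and 11 were tested, of which 3 were upregulated, 3 downregulated and 5 not called (median change -0.25). Over the alternative settings 3 to 5 were upregulated and 1 to 5 downregulated. Atf4, a stress-responsive factor also needed by osteoblasts, rose from 130 ± 36.4 to 370 ± 13.3 FPKM, by limma a log2 change of 1.53 (adjusted p 0.00118). Msx2, a homeobox factor of bone and of vascular calcification, rose from 2.91 ± 0.614 to 7.57 ± 0.491 FPKM, by limma a log2 change of 1.14 (adjusted p 0.00104). Runx1t1, a corepressor known as the fusion partner of RUNX1 in leukaemia, fell from 5.35 ± 0.317 to 1.68 ± 0.298 FPKM, by limma a log2 change of -1.25 (adjusted p 3.94e-04). Cbfb, the shared DNA-binding partner of RUNX proteins, was singled out after its values were seen. It was at 22.3, 18.0 and 24.3 FPKM in Control and at 35.3, 35.8 and 33.5 FPKM with TGF-β1 (log2 change 0.68, limma adjusted p 0.00454). The remaining family member Runx3 was at 0.0305 to 0.162 FPKM, far below Runx1 and Runx2 in every library.

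In replicates 1 and 3 alone all 5 called genes were called again. Their log2 changes there were -5.23 for Mgp, 1.91 for Tnfrsf11b, -0.62 for Enpp1, 2.40 for Runx1 and 1.104 for Runx2, with limma adjusted p-values of 9.47e-04 to 0.0196. Ank was not called there either, at 0.08. Tnfrsf11b passed the filter only through its TGF-β1 libraries, so its call there was fixed in advance.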

How the data were processed

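Total RNA of 6 libraries was sequenced on an Illumina instrument. After removal of low-quality reads the authors aligned to mm9 by TopHat, and Cufflinks gave the FPKM estimates. The submitters' processing notes name TopHat2 2.0.11. The deposited values are FPKM, with no scaling between libraries stated, and the authors' own count-based test was not used. Whether a row is a gene or 1 transcript, and whether strand was used, is not given in the sources used here. Of 19730 rows, 19699 were found by transcript identifier in the mm9 annotation (GENCODE M1).

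Rows with a mean of at least 1 FPKM were tested with limma 3.58.1 in R 4.3.3 on log2(FPKM + 1) values with a trend of variance on level, and two-sided p-values were adjusted over all tested rows (Benjamini-Hochberg). This scale understates changes of low genes. Genes under the filter were taken from the same fit without it. The script was tested on simulated data. Python 3.11.15 and scipy 1.17.1 were used for ratios, with exact permutation tests.

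Depth was recovered from FPKM under 0.6, assuming fragments of 200 nt: 99.4% to 99.8% of values were whole fragments within 0.05, against 26.0% to 28.6% of jittered values. Fragment numbers are approximate and cover counting error only.

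The genes and lists were chosen with earlier results of these data known. From each pathway list the 3 tested genes with the largest absolute change are named, at most 2 examples of each marker list beside defining markers at or near 0, and the 3 profiles nearest to Mgp and to Tnfrsf11b. Alternatives covered the added constant, filter, scaling, variance model, threshold, replicate block, replicate 2 and each library left out. Some genes of the lists are not reported here by name.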

Additional observations from a re-analysis of the deposited data

How the results depend on the processing

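Across 19 alternatives, 5 of the 9 genes were called in each except that with a filter of 3 FPKM, where Tnfrsf11b was not tested and 4 were called. Mgp (-5.53 to -4.94), Enpp1 (-0.82 to -0.52), Runx1 (2.03 to 2.67) and Runx2 (0.95 to 1.28) kept their direction and call in every alternative that gave them a value. Tnfrsf11b (0.97 to 4.90) did so too, but it passed the filter only through its TGF-β1 libraries. Its repeated calls under the filter were therefore fixed in advance and add no support. In the fit without the filter it was called at a limma adjusted p of 7.65e-05. Ank turned to -0.0064 when scaled to the sum of protein-coding rows, which moved the median of all rows to -0.19 and the calls from 2911 up and 2810 down to 2015 up and 3927 down. Alpl, never called, turned to 0.0024 with 3 added, to 0.12 with quantile normalization, to 0.075 with array weights, to 0.12 in replicates 1 and 3 alone, and lay between -0.18 and 0.10 with 1 library left out. The number of genes changed was 3672 at an adjusted p under 0.01, by construction, and 4419 to 5446 with 1 library left out. Without the filter it was 3408 at that threshold and 3355 in replicates 1 and 3 alone.

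Same-numbered libraries deviated together with r of 0.0921, 0.232 and 0.0853, and the other pairs with -0.194 to 0.117. Since not every same-numbered pair exceeded 0.1, and Control replicate 1 correlated best with TGF-β1 replicate 3, the numbers were not taken to pair the samples, although all same-numbered values were positive. With the replicate block 5391 genes were called, 2728 up and 2663 down, and the same 5 of the 9 genes.

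Depth limits what can be said of Tnfsf11, Sp7 and Alpl.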
